A study of Mus musculus with 137 samples.

Results

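The embryos described here are single 2-cell mouse embryos (B6129F1 strain) that were cultured in the NR5A2 inhibitor SR1848, were labelled as given NR5A2 mRNA, and held GFP transcripts. They were compared with embryos cultured in the solvent, DMSO, in the same experiment. Of 27 libraries labelled SR1848 with NR5A2 mRNA in experiment 1, 17 were chosen by their GFP reads, with at least 100 counts per 1e6 counts (CPM) summed over the GFP rows. Number 22, a library with few counts, had been set aside. The whole series holds 137 embryos. The 16 DMSO embryos (0.1% DMSO; numbers 6, 13 and 16 left out for low counts) and 16 SR1848 embryos (10 µM; number 8 left out) of experiment 1 served as the groups for comparison. The injected group had 10 µM SR1848 and 500 ng/µl NR5A2 mRNA. Zygotes were collected 5 h after fertilization and the agents were in the medium from 6 h. Embryos were cultured without oil, since the inhibitor is hydrophobic. The 17 embryos therefore differed from the DMSO embryos in the inhibitor, the mRNA and the injection at once. A group injected in DMSO, or injected with another mRNA under SR1848, was not analysed here, so these causes cannot be told apart in a comparison with DMSO. Each library is 1 embryo. The labels do not record parents, so p-values measure the spread between embryos, which may share them.

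NR5A2 (also called LRH-1) is an orphan nuclear receptor that binds DNA as a monomer at sites with the core AAGG. It is known for control of bile acid, steroid and pancreatic enzyme genes in adult organs and for Pou5f1 in early embryos. In the mouse 2-cell embryo, the zygote's own genome is switched on while RNAs stored by the oocyte are degraded. Messages for ribosome production, splicing and protein turnover are among those the embryo starts to make at that stage.

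The embryos were selected on GFP, so its values and those of Nr5a2, the injected gene, are given with no test. In the 17 embryos GFP ran from 2282 to 10267 CPM with a median of 4333. The highest injected embryo left under the threshold had 32.7 CPM, so no embryo lay near the threshold. Nr5a2 ran from 2060 to 8463 CPM (median 3562) with GFP, from 93.3 to 189 (median 115) in DMSO and from 6.30 to 22.6 (median 12.6) in SR1848. The 9 injected embryos under the threshold had 5.37 to 54.5 CPM (median 18.9), below every DMSO embryo. Nr5a2 RNA was therefore many times its solvent level in each embryo with GFP. The ratio of Nr5a2 to GFP was 0.726 to 0.937 with a median of 0.824. The labels name NR5A2 mRNA and not GFP, so where the GFP reads came from is not stated in those sources. RNA counts say nothing of whether the receptor was active in the presence of SR1848.

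**Figure D1:**
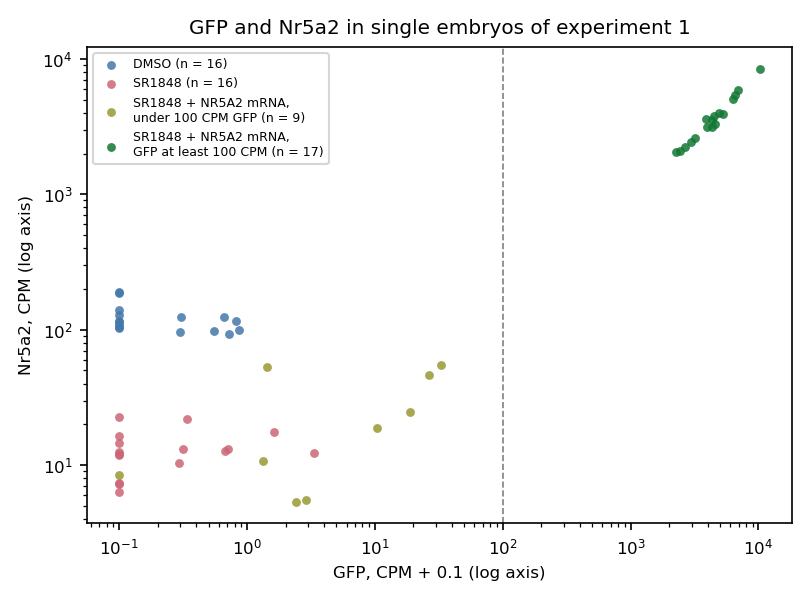
Nr5a2 against GFP in the embryos of experiment 1, in CPM on log axes (0.1 added to GFP), 1 point per embryo, with the 100 CPM threshold as a dashed line. The 17 embryos with GFP form a group apart with 2282 CPM of GFP or more and 2060 CPM of Nr5a2 or more.

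Depth ran from 3856617 to 6481041 counts per embryo with GFP, 4748649 to 9317721 in DMSO and 3951906 to 6279732 in SR1848. The median number of genes detected was 16053 with GFP, 16610.5 in DMSO and 14781.5 in SR1848. The DMSO libraries left out had 1644926 counts or fewer, and the injected library left out had 145058. Numbers 6 and 13 of DMSO, left out, held 317 and 146 CPM of GFP on 100883 and 335139 counts.

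Against DMSO, 10042 of 13105 genes tested passed an adjusted p of 0.05 in embryos with GFP (76.6%; quasi-likelihood test of edgeR, p adjusted by Benjamini-Hochberg). Of these, 5246 were higher (40.0% of genes tested) and 4796 lower (36.6%). Changes were large as well as many: 4405 genes were higher and 4247 lower by at least 1 on the log2 scale, and 119 and 274 by at least 5. For SR1848 alone against the same DMSO embryos, 10235 genes passed (78.1%), 5019 higher (38.3%) and 5216 lower (39.8%). Against SR1848, embryos with GFP differed in 3807 genes (29.0%), 2462 higher (18.8%) and 1345 lower (10.3%). These 3 comparisons share embryos pairwise, so their values are set side by side only.

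The whole profile of each embryo with GFP lay nearer to SR1848 than to DMSO. Across 13105 genes, the Pearson correlation of an embryo's log2 CPM with the SR1848 mean was 0.628 to 0.894 (median 0.828). With the DMSO mean it was 0.437 to 0.627 (median 0.477). All 17 embryos were closer to the SR1848 mean, though injected embryo number 6 was almost tied (0.6278 with SR1848, 0.6273 with DMSO). This is a description over genes, which are not independent replicates. Embryos with GFP also varied more among themselves: the median SD over genes was 1.09 log2 CPM, against 0.706 in DMSO and 0.952 in SR1848.

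The split of calls into higher and lower depends on the scaling. With the main (TMM) scaling the median change of all genes was 0.17 on the log2 scale and 52.2% of calls against DMSO were higher. When each library was scaled to its summed maternal transcripts, messages stored by the oocyte, the median was -1.17 and 21.1% of calls were higher (1987 higher, 7415 lower). Against SR1848 the same change moved the share of higher calls from 64.7% to 90.8%. Counts per embryo are shares of its RNA, so a lower total and unequal change cannot be told apart. Changes below are on the TMM scale and are to be read against that 0.17.

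The messages furthest from restoration were nearly absent. The genes named in this and the next paragraphs are the largest of their kind among named genes with enough signal, so their size is part of their choice. Tead4 (chr6:128224288-128300823, GRCm38), a transcription factor needed for the trophectoderm, had 34.4 to 174 CPM in DMSO (median 78.3) and 0 to 0.914 with GFP. Only 12 counts in 4 of 17 embryos were found, and 0 in SR1848. The DMSO level was 619-fold higher than with GFP (95% Poisson interval 354 to 1198, counting error only). Timd2, a cell-surface receptor of the TIM family, had 440.2 to 1797 CPM in DMSO (median 1113), 0 to 17.5 with GFP (median 0.673) and 0 to 12.9 in SR1848 (median 1.42). Its change against DMSO was -8.63 on the log2 scale (SE 0.59, adjusted p = 2.97e-18), and that against SR1848 was -0.29 (adjusted p = 0.716). For both genes every embryo with GFP lay below every DMSO embryo.

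Genes of nucleotide supply, DNA replication and protein modification were in the same group. Ppat (chr5:76913249-76951578) encodes the enzyme of the committed step of purine synthesis. It had 479 to 891 CPM in DMSO (median 699.8) and 0 to 26.7 with GFP (median 2.42), a change of -7.33 (SE 0.59, adjusted p = 8.08e-16). Sumo2, a ubiquitin-like modifier, had 452 to 836 CPM in DMSO (median 589.6), at most 16.8 with GFP (median 2.76) and 0 to 30.2 in SR1848 (median 1.45). Gins3, a subunit of the replicative helicase complex, fell by 7.20 (SE 0.69). Its median was 178 CPM in DMSO and 0 with GFP.

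Small GTPases and membrane proteins made up the rest. Rab20, a GTPase of endocytic vesicles, had 558 to 1471 CPM in DMSO (median 797) and 0 to 21.7 with GFP (median 2.56). It was called higher than in SR1848 (1.81, adjusted p = 0.0142), yet no embryo came near the DMSO range. Rab39, another vesicle GTPase, had 51.2 to 153 CPM in DMSO and at most 1.76 with GFP. Slc13a2, a sodium-coupled dicarboxylate transporter, left 2 counts in 1 of 17 embryos, and the DMSO level was 1315 times that (95% interval 364 to 10863). Hsd17b6, a hydroxysteroid dehydrogenase, left 6.5 estimated counts, a 529-fold difference (263 to 1564). Syngr1, a synaptic vesicle protein, left 0 counts in all 17 embryos and was at least 699.8-fold lower than in DMSO against a floor of 3 counts over the group. All 10 genes lay below every DMSO embryo in all 17. Over all genes tested, 2022 (15.4%) lay wholly below and 592 (4.52%) wholly above the DMSO range.

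**Figure D2:**
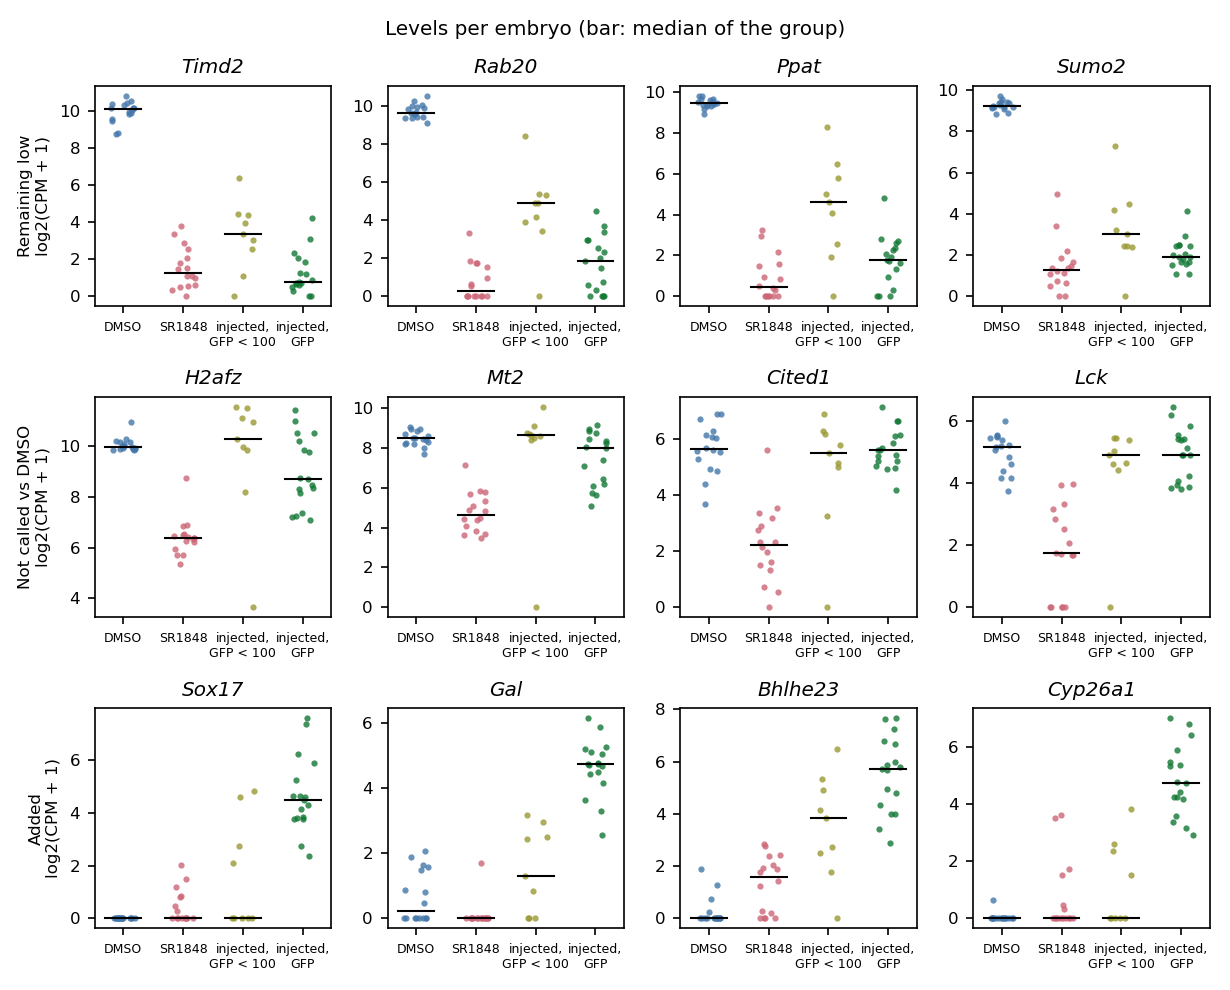
Levels per embryo as log2(CPM + 1) in DMSO, SR1848, injected embryos under the GFP threshold and injected embryos with GFP, 1 point per embryo, with a bar at each group's median. Timd2, Rab20, Ppat and Sumo2 stay below the DMSO range with GFP, H2afz, Mt2, Cited1 and Lck overlap it, and Sox17, Gal, Bhlhe23 and Cyp26a1 lie above it.

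The genes nearest to a return are those called lower with SR1848 than in DMSO, called higher with GFP than with SR1848, and not called against DMSO. A missed threshold does not show that levels were equal, and the intervals below say how large a difference remains possible. Under the maternal scaling 9 of the 10, all but Relch, were called lower than in DMSO. Cited1, a transcriptional coactivator, had 17.1 to 142 CPM with GFP (median 48.4), 11.8 to 119 in DMSO (median 49.8) and 0 to 48.9 in SR1848 (median 3.72). The change against DMSO was 0.14 (95% interval -0.67 to 0.95, edgeR). Lck, a tyrosine kinase best known from T cells, had medians of 29.6 CPM with GFP, 35.5 in DMSO and 2.34 in SR1848, with a change against DMSO of 0.24 (-0.64 to 1.11). For these genes the embryos with GFP overlapped the DMSO range. Under the maternal scaling the change was -1.05 for Cited1 (adjusted p = 0.0324) and -1.04 for Lck (adjusted p = 0.0430).

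The other genes of this set, like Cited1 and Lck, had a lower median with GFP than in DMSO. H2afz (chr3:137864487-137866922), the histone variant H2A.Z, had 134 to 2758 CPM with GFP (median 415), 914 to 2006 in DMSO (median 1010.5) and 39.5 to 434 in SR1848 (median 82.4). Its change against DMSO was -0.29 (-0.94 to 0.35), with 5 of 17 embryos above the DMSO median. Tet1 (chr10:62804570-62908996), which oxidises 5-methylcytosine, had a median of 23.9 CPM with GFP (8.08 to 273), 156 in DMSO and 4.55 in SR1848. Only 2 of 17 embryos exceeded the DMSO median, and the change of -0.80 (-1.62 to 0.03) missed the threshold at an adjusted p of 0.0757. It was called lower with DESeq2 (-1.07, adjusted p = 0.0194), with total-count scaling (-0.99, adjusted p = 0.0303) and under 4 other settings (lowest adjusted p = 0.000718, maternal scaling). Mt2, a metallothionein that binds zinc and copper, had 32.8 to 560.0 CPM with GFP (median 254), 206 to 536 in DMSO (median 358) and 10.2 to 143 in SR1848 (median 24.2). Its change against DMSO was -0.38 (-1.04 to 0.28).

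Receptor and signalling genes completed the set. Relch, a regulator of cholesterol transport from endosomes, had 7.81 to 349.9 CPM with GFP (median 51.0), 45.5 to 119 in DMSO (median 86.6) and at most 19.2 in SR1848 (median 7.82). Its fitted change against DMSO was 0.34 (-0.31 to 0.99), although 10 of 17 embryos lay below the DMSO median. Prkcq, protein kinase C theta, had a median of 28.5 CPM with GFP, 154 in DMSO and 10.4 in SR1848. Tnfrsf12a, the receptor of TWEAK, and Tnfrsf22, a decoy receptor for TRAIL, had changes of -0.93 and -0.94 against DMSO. For Tnfrsf22 the adjusted p was 0.0552, and 14 of 17 embryos lay below the DMSO median. Both, like Tet1, were called lower under several other settings, among them relative log expression (-1.22 for each, adjusted p = 0.0477 and 0.0157). Zfp647, a zinc finger gene, had medians of 13.7 CPM with GFP, 32.3 in DMSO and 0 in SR1848.

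The 9 injected embryos under the GFP threshold are described only, since they hold little Nr5a2 RNA. Their median was 1258 CPM for H2afz, 77.1 for Tet1, 165 for Relch and 403 for Mt2, in each case above the median of the embryos with GFP. For Ppat it was 23.8 CPM, with 1 embryo at 310.3. The range of this group was wide: H2afz ran from 11.5 to 3008 CPM.

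Experiment 2 tested the same injection against SR1848 in other embryos (25 with GFP, 24 with SR1848). Labels and reads differed in part of that experiment. Numbers 1 to 8 labelled SR1848 with NR5A2 mRNA held at most 0.452 CPM of GFP, and 81.6 to 155 CPM of Nr5a2. Numbers 1 to 8 labelled DMSO held 47.4 to 7075 CPM of GFP. None of these libraries entered the test of experiment 2, and the cause of the difference was not tested. Of the genes higher with GFP than with SR1848 in experiment 1, 1897 were tested there, and 1046 were called higher and 18 lower. For genes lower in experiment 1, 870 of 1313 tested were called lower and 9 higher. In experiment 2 as a whole, 19.0% of genes were called higher and 17.1% lower. Of the 10 genes of the preceding set, 7 were called higher again. The other three were Relch (0.96, adjusted p = 0.0566), Prkcq (0.59, adjusted p = 0.259) and Tnfrsf22 (0.00, adjusted p = 0.997).

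Other messages rose past both the solvent and the inhibitor alone. Sox17 (chr1:4490931-4497354), an HMG-box factor of endoderm, had 0 counts in all 16 DMSO embryos and 4.10 to 194 CPM with GFP (median 21.4). Its level was at least 1234-fold higher than in DMSO against a floor of 3 counts over the group, and SR1848 embryos held 38 counts in 7 of 16. Cyp26a1 (chr19:37697798-37701536), which degrades retinoic acid, had 6.63 to 129.9 CPM with GFP (median 26.0) and 3 counts in 1 DMSO embryo, a 1178-fold difference (95% interval 403 to 5715). Bmp4, a secreted growth factor, had a median of 25.4 CPM with GFP and 0.0763 in DMSO, a change of 5.62 (SE 0.78, adjusted p = 8.36e-09). Sox17 and Cyp26a1 in all 17 embryos lay above every DMSO embryo, while Bmp4 overlapped. Bmp4 had a median of 14.1 CPM (0 to 27.6) in the 9 injected embryos under the GFP threshold, against 0 in SR1848. Its rise was therefore not particular to embryos with GFP. The median of Sox17 and of Cyp26a1 under the threshold was 0 CPM, with highest levels of 27.9 and 13.2 CPM.

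Other added genes were Helt, Bhlhe23, Npy, Gal and Nefl. Helt, a bHLH repressor of the midbrain, had 8.42 to 47.1 CPM with GFP (median 21.9) and 8 counts in 1 DMSO embryo, a 277-fold difference (140.5 to 644). Bhlhe23, a related factor, had 6.40 to 203 CPM with GFP (median 52.1) and at most 2.75 in DMSO. Npy and Gal encode neuropeptides. Npy had 5.37 to 141 CPM with GFP (median 19.2) and at most 2.12 in DMSO, and its change was 7.65 (SE 0.79, adjusted p = 2.61e-12). Gal changed by 5.24 (SE 0.68), from a DMSO median of 0.186 to 25.8 CPM. Nefl, the light neurofilament chain, changed by 7.42 (SE 0.79). Bhlhe23 had a median of 13.5 CPM (0 to 89.4) in the 9 injected embryos under the GFP threshold, against 2.05 in SR1848. Part of its rise was therefore seen without GFP at the threshold. The medians of Helt, Npy, Gal and Nefl under the threshold were at most 2.52 CPM, against 19.2 or more with GFP. In experiment 2, against SR1848, Npy (5.35), Gal (6.50), Nefl (3.74), Helt (4.63), Bhlhe23 (2.69), Sox17 (3.76), Bmp4 (4.28) and Cyp26a1 (4.61) were all called higher on the log2 scale.

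Hist2h2be (chr3:96221119-96223738), a replication-dependent H2B gene, followed GFP embryo by embryo. It had 745 to 4036 CPM with GFP (median 1600.2), and DMSO embryos held 8 counts in 3 of 16, a 20191-fold difference (10247 to 46768). Its ratio to GFP was 0.322 to 0.443 (median 0.366) in experiment 1 and 0.353 to 0.493 (median 0.404) in experiment 2. Whether these reads come from the embryo's gene or from injected RNA was not tested.

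Zscan4c (chr7:11005745-11010547), a marker of the 2-cell stage, was raised in part of the embryos. It had 0 to 1093 CPM with GFP (median 324), 0 to 25.6 in DMSO (median 7.55) and 0 to 81.5 in SR1848 (median 5.82). The change against DMSO was 5.52 (SE 0.82, adjusted p = 4.83e-08). Of 17 embryos, 11 exceeded every DMSO embryo and the other six lay below the DMSO median, so the group was split. The same held in 8 of the 9 injected embryos under the threshold and in 2 of 16 SR1848 embryos. In experiment 2 the change over SR1848 was 0.91 (adjusted p = 0.406), with 8 of 25 embryos with GFP and 5 of 24 SR1848 embryos above the same mark. Reads of the near-identical Zscan4 copies can be divided between them, so their sum is safer: 1.75 to 4824 CPM with GFP (median 1513), 59.0 to 163 in DMSO (median 104) and 9.92 to 687 in SR1848 (median 163). For the sum, 11 of 17 embryos with GFP, 8 of 16 SR1848 embryos and 8 of the 9 injected embryos under the threshold exceeded every DMSO embryo of experiment 1. In experiment 2 the same held for 9 of 25 embryos with GFP and 13 of 24 SR1848 embryos.

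**Figure D3:**
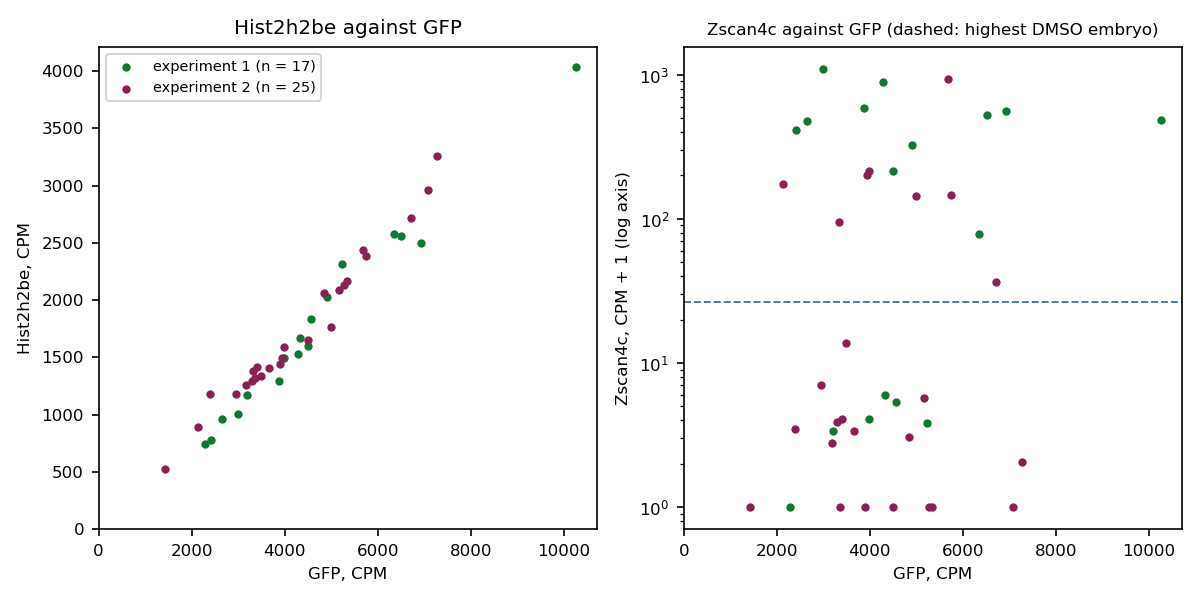
Hist2h2be (left, CPM) and Zscan4c (right, CPM + 1 on a log axis) against GFP in CPM in injected embryos with GFP of experiments 1 and 2, 1 point per embryo, with the highest DMSO level of Zscan4c as a dashed line. Hist2h2be stays at 0.322 to 0.443 of GFP in experiment 1, while Zscan4c is above the DMSO mark in 11 of 17 embryos of experiment 1 and 8 of 25 of experiment 2.

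Other genes fell below both DMSO and SR1848, and the 5 named by rule follow. Nono (chrX:101429318-101448591), a paraspeckle RNA-binding protein, had 3.11 to 42.9 CPM with GFP (median 27.9), 116 to 389 in DMSO (median 197) and 38.5 to 203 in SR1848 (median 91.4). Its change was -2.97 against DMSO (SE 0.24, adjusted p = 1.01e-15) and -1.85 against SR1848 (adjusted p = 3.01e-08). Nsmce2, a SUMO ligase of the SMC5/6 complex, changed by -2.47 against DMSO and by -1.84 against SR1848. The same changes were -3.06 and -1.83 for Ints12, a subunit of the Integrator complex, and -2.76 and -2.03 for the zinc finger gene Zscan21. Fundc1, a mitophagy receptor, changed by -2.08 and -2.01, but the fall against DMSO was lost when every injected embryo was taken (0.05) and at a GFP threshold of 10 CPM (-0.65, adjusted p = 0.227). Apart from Fundc1, these genes lay below every DMSO embryo in all 17. In the 9 injected embryos under the GFP threshold, medians were 58.0 CPM for Nono and 35.4 for Fundc1. For Nsmce2, Zscan21 and Ints12 they were 29.8, 25.7 and 11.1 CPM, against medians of 19.6, 14.2 and 4.59 with GFP. Pooled over the SR1848 embryos, the levels of these genes were 78.9, 60.3 and 18.0 CPM.

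Other genes that were high with SR1848 remained high. Pkd2l2, a polycystin-family channel gene, had 679 to 7418 CPM with GFP (median 4930.0), 3678 to 8468 in SR1848 (median 5083) and 82.2 to 609 in DMSO (median 170.3). Its change was 4.61 against DMSO (SE 0.27) and -0.15 against SR1848 (adjusted p = 0.687). Car9, a carbonic anhydrase, had 25.0 to 449 CPM with GFP (median 286), 312 to 516 in SR1848 (median 427) and 6.34 to 30.0 in DMSO (median 10.8), so it was called lower than in SR1848 (-0.64, adjusted p = 0.0273) and still far above DMSO. Gadd45g, a stress-induced growth arrest gene, changed by 5.32, Samd10 by 4.60, Ttc34 by 5.21 and the cytochrome gene Cyp2b23 by 4.82 against DMSO. None of these 4 was called against SR1848. Hoxa9 and Olig1, developmental transcription factors, were higher than in DMSO by 8.72 (SE 0.79) and 8.85 (SE 0.99), and higher than in SR1848 by 2.67 (adjusted p = 1.65e-04) and 3.77 (adjusted p = 8.69e-05). In the 9 injected embryos under the GFP threshold, Olig1 had a median of 59.6 CPM and Hoxa9 one of 4.19, against at most 2.00 and 1.40 in DMSO. Sox17 and Cyp26a1, described above, also met the rule for this group.

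Stored maternal messages stayed high. Each list from here on is to be read beside all genes tested, of which 40.0% were higher and 36.6% lower than in DMSO. Against SR1848 the same shares were 18.8% and 10.3%. Of 84 listed maternal transcripts tested, 67 were higher and 10 lower than in DMSO (median change 1.20, against 0.17 over all genes). Under the maternal scaling the median was -0.19. That scaling sets the sum of this same list equal in all libraries, so it cannot test the rise of the list. Against SR1848, 4 were higher and 32 lower (median -0.36). They made up 3.50% to 8.85% of counts with GFP (median 6.23%), 2.01% to 3.51% in DMSO (median 2.41%) and a median of 7.80% in SR1848, so 1 of 17 embryos lay within the DMSO range. Wee2, an oocyte kinase that holds meiosis, had a median of 3781 CPM with GFP, 338 in DMSO and 4327 in SR1848 (change against DMSO 3.42, SE 0.19, adjusted p = 6.48e-22). Dnmt3l, a cofactor of DNA methylation in the oocyte, and Oog1 changed by 2.84 and 2.49.

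Transcripts typical of the 2-cell stage were called in shares near those of all genes tested (40.0% higher, 36.6% lower). Of 62 listed, 55 were tested: 24 were higher and 18 lower than in DMSO, with a median of 0.16 that fell to -0.13 with relative log expression, -0.02 with total counts and -0.98 with the maternal scaling. Against SR1848, 29 were higher and 2 lower (median 1.54). Their share of counts ran from 0.121% to 0.939% with GFP (median 0.362%), 0.542% to 0.901% in DMSO (median 0.724%) and had a median of 0.244% in SR1848. Without the Zscan4 copies the medians were 0.212% with GFP, 0.713% in DMSO and 0.220% in SR1848. Injected embryos under the GFP threshold had higher medians than those with GFP, 0.497% with the Zscan4 copies and 0.443% without them. Of the 24 higher members, 6 were Zscan4, 4 Usp17 and 2 Tcstv genes, families of near-identical copies. Trim43b and Trim43c, members of a multicopy family, fell from medians of 856 and 624 CPM in DMSO to 10.4 and 4.87 with GFP (changes -5.44 and -6.31).

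Between these lay 2-cell genes that rose over SR1848 without reaching DMSO, chosen here after their values were seen. Obox8, a homeobox gene of the oocyte and early embryo, had 0.886 to 177 CPM with GFP (median 25.1), 294 to 634 in DMSO and 0 to 49.2 in SR1848 (median 1.22). It was 3.41 higher than in SR1848 (adjusted p = 6.33e-06) and 2.82 lower than in DMSO (log2 change -2.82, adjusted p = 5.76e-06). Obox6, of the same family, had medians of 35.6 CPM with GFP, 751 in DMSO and 1.12 in SR1848. Crxos, another homeobox gene, had medians of 16.5 CPM with GFP, 500.02 in DMSO and 1.59 in SR1848, and its highest embryo, at 405 CPM, entered the DMSO range of 300.2 to 778.

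Among 32 pluripotency factors tested of 37 listed, 10 were higher and 14 lower than in DMSO (median -0.67), and 14 were higher and 6 lower than in SR1848. Over all genes tested, 40.0% were higher and 36.6% lower than in DMSO. Dppa2 and Dppa4, paired chromatin factors that act upstream of 2-cell genes, fell from 724 and 513 CPM in DMSO to 46.5 and 4.83 with GFP. Dppa2 was lower with GFP than with SR1848 too (-1.18, adjusted p = 1.82e-05). Fbxo15, an F-box gene used as a stem cell marker, changed by -3.33 against DMSO and by 0.18 against SR1848 (adjusted p = 0.560). Nanog, picked after its values were seen, had 5.32 to 37.1 CPM with GFP (median 22.6), 1.34 to 12.4 in DMSO (median 3.75) and 1.66 to 17.2 in SR1848 (median 4.89), a change of 2.40 against DMSO (SE 0.32, adjusted p = 2.52e-09). Klf17, a Krüppel-like factor also picked that way, fell by 1.24 against DMSO (adjusted p = 2.86e-13), with SR1848 at a median of 1897 CPM, DMSO at 1785 and GFP at 629.8.

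Lineage factors of the trophectoderm and endoderm were counted beside all genes tested (40.0% higher, 36.6% lower), and their balance depended on the scaling. Of 36 trophectoderm genes tested of 45, 17 were higher and 7 lower than in DMSO (median 0.89), while under the maternal scaling 11 were higher and 15 lower (median -0.45). Against SR1848, 10 were higher and 1 lower. Dab2, an endocytic adaptor, rose by 2.97 against DMSO with a change of -0.48 against SR1848 (adjusted p = 0.186), and the Hippo cofactor Wwtr1 fell by 4.25. Gata2, Krt8 and Krt18, named after their values were seen, rose over both groups. Gata2 had 26.8 to 154 CPM with GFP (median 66.9) against medians of 4.94 in DMSO and 3.45 in SR1848. The keratin Krt18 had 14.2 to 219 CPM with GFP (median 72.5) and at most 9.95 in DMSO, and its partner Krt8 had medians of 19.7 with GFP and 1.49 in DMSO. Of 28 endoderm and liver factors 12 were tested, with 7 higher and 2 lower than in DMSO (median 1.85; 4 and 3 under the maternal scaling, median 0.49) and 7 higher and 0 lower than in SR1848. The share of counts of all 28 had medians of 0.0188% with GFP, 0.0196% in DMSO and 0.00775% in SR1848. It lay within the DMSO range in 13 of 17 embryos, so the list as a sum did not exceed DMSO. Hhex rose by 1.81 against DMSO, a call lost under the maternal scaling (0.44, adjusted p = 0.113), while Gata4 fell by 2.25, from a median of 125 to 20.0 CPM.

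The list of genes described as NR5A2 targets in other tissues was mixed, beside 40.0% higher and 36.6% lower over all genes tested. Of 48 listed, 26 were tested: 8 were higher and 11 lower than in DMSO (median 0.12; -0.21 with relative log expression, -0.06 with total counts and -1.17 with the maternal scaling), and 7 were higher and 1 lower than in SR1848. All 17 embryos lay below the DMSO range in the share of counts, 0.0618% to 0.139% against 0.143% to 0.205%. Pou5f1, which encodes OCT4, had 80.6 to 283 CPM with GFP (median 130.0), 7.07 to 81.0 in DMSO (median 34.2) and 116 to 364 in SR1848 (median 247). It was higher than in DMSO by 2.34 (SE 0.22, adjusted p = 1.89e-13) and lower than in SR1848 by -0.57 (adjusted p = 0.0337). Cpa1, a pancreatic carboxypeptidase, and Scarb1, the receptor for high-density lipoprotein, rose by 1.88 and 1.97 against DMSO. Ccne1 (cyclin E1), picked after its values were seen, rose over SR1848 by 1.98 and remained below DMSO (-2.01), with medians of 93.9, 20.9 and 492 CPM with GFP, in SR1848 and in DMSO. Of 33 nuclear receptors tested, 20 were higher and 5 lower than in DMSO (median 1.21; -0.15 under the maternal scaling) and 4 were higher and 2 lower than in SR1848. Nr2e1 and Esr2 rose by 4.37 and 2.79, and Nr2c2 fell by 5.59 from a DMSO median of 342 CPM.

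The machinery of gene expression stayed low as a block. Of 99 nucleolus and ribosome biogenesis genes tested, 96 were lower than in DMSO and 1 higher (median -3.20), while 29 were higher and 9 lower than in SR1848 (median 0.41). Their share was 0.252% to 0.805% of counts with GFP (median 0.390%) against 1.91% to 2.61% in DMSO (median 2.13%) and a median of 0.297% in SR1848. No embryo with GFP reached the DMSO range. Injected embryos under the GFP threshold had 0.351% to 1.57%, with a median of 0.588%, above the median with GFP. Wdr43, a factor for processing of the small-subunit rRNA, had 25.7 to 111 CPM with GFP (median 63.0), 855 to 1317 in DMSO (median 1029) and 89.9 to 261 in SR1848 (median 122). Its change was -3.88 against DMSO (SE 0.16, adjusted p = 7.43e-26) and -1.16 against SR1848 (adjusted p = 4.72e-08). Brix1 and Imp4, of the large- and small-subunit pathways, changed by -2.71 and -2.93 against DMSO.

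Ribosomal protein mRNAs stayed low as well, with a partial rise over SR1848. Of 82 tested, 76 were lower and 2 higher than in DMSO (median -2.20), and 44 were higher and 2 lower than in SR1848 (median 0.79). They made up 0.187% to 1.05% of counts with GFP (median 0.299%), 1.07% to 1.99% in DMSO (median 1.44%) and a median of 0.268% in SR1848. Injected embryos under the GFP threshold had a median of 0.712% (0.0171% to 1.13%), so the rise was not particular to embryos with GFP. Rps24, Rpl37a and Rpl11 changed by -3.32, -3.27 and -2.96 against DMSO. Of these, Rpl37a was called over SR1848 (0.71, adjusted p = 0.0230).

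Splicing, transcription and protein turnover gave like counts. Of 63 spliceosome genes 55 were lower and 5 higher than in DMSO (median -2.01), and of 62 RNA polymerase II and elongation genes 48 were lower and 7 higher (median -1.36). Of 46 proteasome genes 34 were lower and 6 higher (median -1.96), and the share of counts with GFP was below every SR1848 embryo in 11 of 17. The general transcription factor gene Gtf2f2 changed by -4.55 against DMSO and by -1.58 against SR1848 (adjusted p = 3.72e-08). The same changes were -3.30 and -1.09 for Tbp, the TATA-binding protein, and -3.13 and -0.89 for the kinase gene Cdk7. The proteasome subunit genes Psma3 and Psmd12 changed by -2.65 and -4.60 against DMSO and were not called against SR1848.

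**Figure D4:**
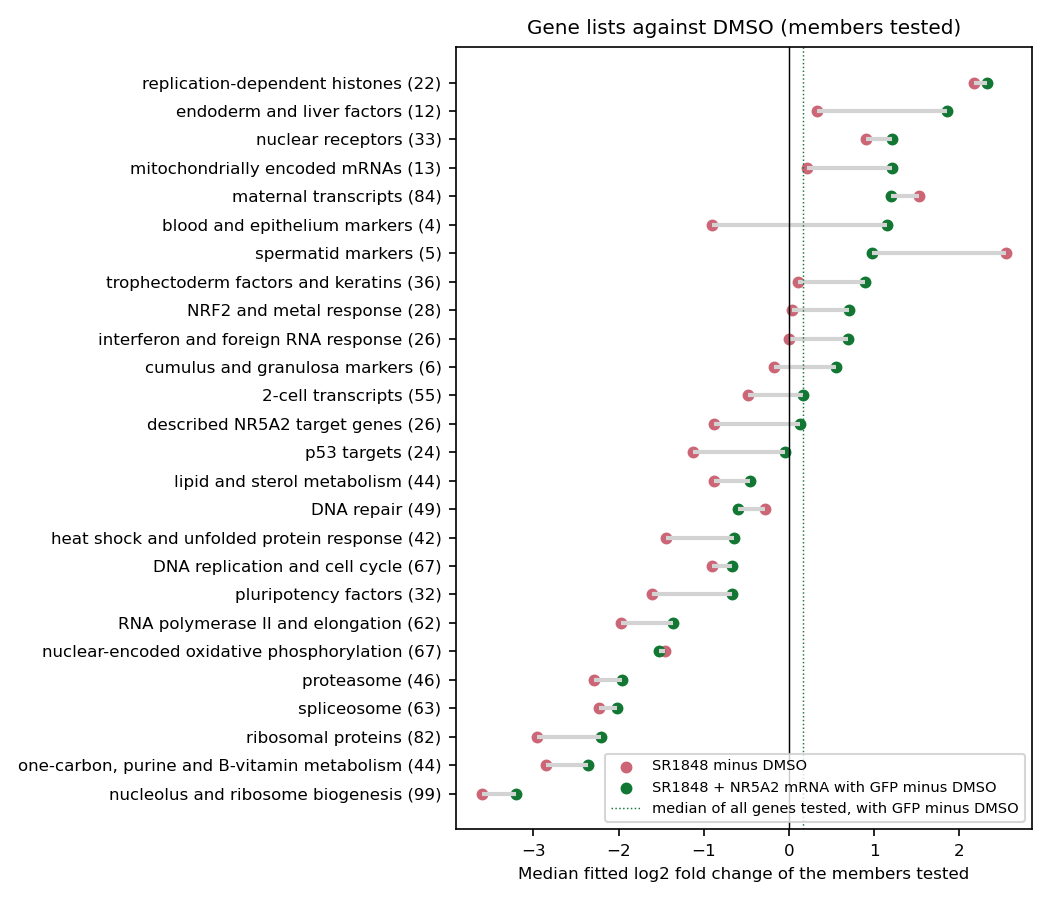
Median fitted log2 fold change of the tested members of each gene list against DMSO, with SR1848 alone and with NR5A2 mRNA and GFP, with the number of members tested in brackets. The dotted line is the median of all genes with GFP (0.17), and lists such as nucleolus (-3.20) and one-carbon metabolism (-2.35) stay far to its left.

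Metabolic genes split by genome. Over all genes tested, 40.0% were higher and 36.6% lower than in DMSO. Of 44 genes of one-carbon, purine and B-vitamin metabolism tested, 31 were lower and 8 higher than in DMSO (median -2.35), and 10 were higher and 3 lower than in SR1848. Their share was 0.156% to 0.321% with GFP and 0.988% to 1.66% in DMSO. Phgdh, the first enzyme of serine synthesis, fell from a median of 312 CPM to 10.1 (change -4.60, SE 0.25). Hprt, of purine salvage, and Pank3, of coenzyme A synthesis, changed by -2.72 and -4.13. Of 67 nuclear oxidative phosphorylation genes, 48 were lower and 7 higher than in DMSO (median -1.52), among them Atp5a1 (-3.02), Cox5a (-2.08) and Atp5c1 (-1.78). Of 44 lipid and sterol genes 20 were lower and 11 higher (median -0.45), with Elovl6 at -6.13 and Scap at 1.53, the latter not called under the maternal scaling (0.20, adjusted p = 0.366).

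The 13 mRNAs encoded by mitochondrial DNA were all higher than in DMSO (median 1.21) and all higher than in SR1848 (median 1.00). With the maternal scaling 0 were called against DMSO and the median was -0.05. With the libraries of low counts kept, 7 were called. They made up 6.53% to 17.8% of counts with GFP (median 9.96%), 4.27% to 8.24% in DMSO (median 5.77%) and a median of 6.24% in SR1848, and 3 of 17 embryos lay within the DMSO range. The change of mt-Nd1, a subunit of complex I, was 1.47 against DMSO and 1.24 against SR1848. That of mt-Co3 was 1.24 and 0.50, and that of mt-Nd4 was 1.20 and 1.00. Injected embryos under the GFP threshold had a median share of 11.1%.

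**Figure D5:**
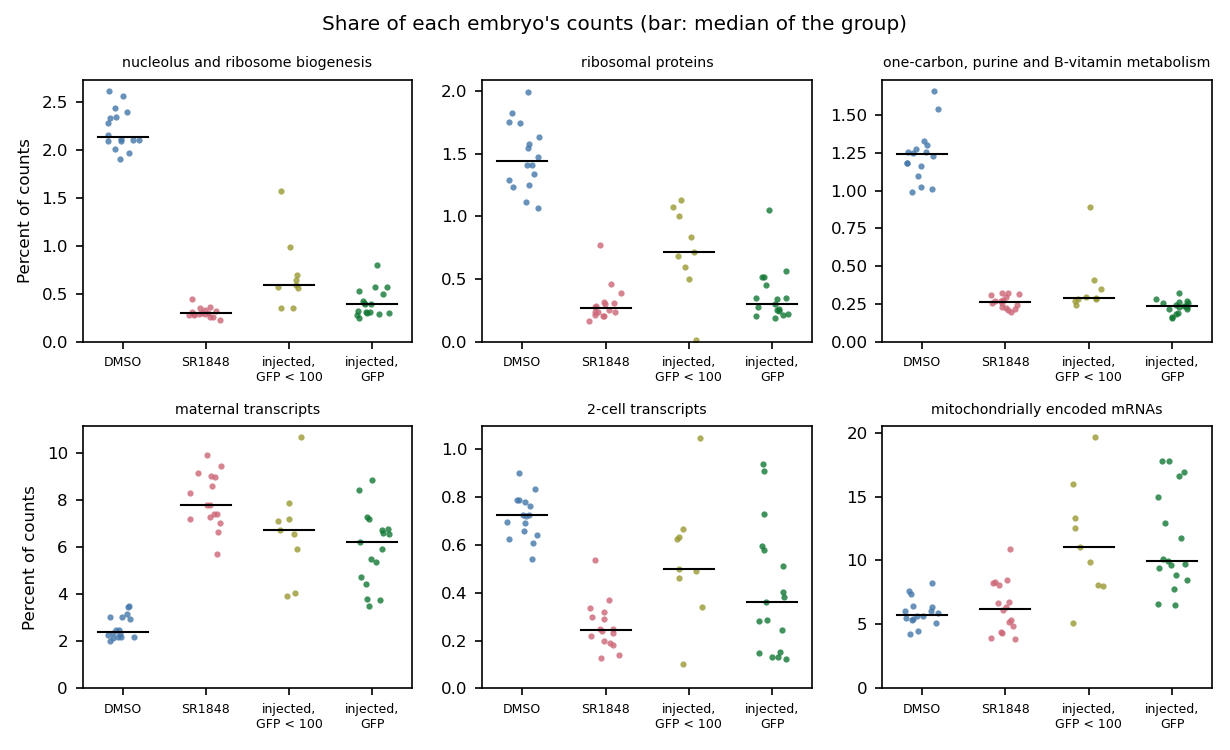
Share of each embryo's counts (percent) taken by 6 gene lists in DMSO, SR1848, injected embryos under the GFP threshold and injected embryos with GFP, with a bar at each median. Nucleolar, ribosomal protein and one-carbon shares lie below the DMSO range in all 17 embryos with GFP, and the mitochondrial share lies above the DMSO median of 5.77% in all 17.

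Cell cycle and damage lists were mixed and are to be read beside all genes tested (40.0% higher, 36.6% lower). Of 67 replication and cell cycle genes 34 were lower and 16 higher than in DMSO (median -0.67). Mcm6, of the replicative helicase, changed by -3.54 and Cdc25c, a mitotic phosphatase, by -4.61, while Pola2, of DNA polymerase alpha, had 785 to 2962 CPM with GFP (median 1362), a DMSO median of 286 and an SR1848 median of 597. Pola2 thus rose over both groups, by 2.66 and 1.52. Of 49 DNA repair genes 22 were lower and 11 higher (median -0.60), with Chek2, a checkpoint kinase, at -2.94 and the mismatch repair genes Msh3 at 1.98 and Pms2 at -2.74. Of 24 p53 targets 9 were lower and 7 higher (median -0.05), with Tigar and Ei24 at -5.59 and -4.22. Of 42 heat shock and unfolded protein response genes 21 were lower and 8 higher (median -0.65), with the endoplasmic reticulum chaperone genes Pdia3 and Dnajb11 at -3.88 and -3.17 and Hsf1, the heat shock factor, at 2.29. Of 28 NRF2 and metal response genes 14 were higher and 6 lower (median 0.70; -0.75 under the maternal scaling). G6pdx, of the pentose phosphate pathway, had medians of 608 CPM with GFP, 113 in DMSO and 1706 in SR1848. Fth1, ferritin heavy chain, rose by 1.93 against DMSO and by 1.18 against SR1848, and Tiparp by 1.94 against DMSO.

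The interferon and foreign RNA list bears on the injection, since double-stranded RNA can induce it in many cells. Of 50 listed genes 26 were tested: 13 were higher and 4 lower than in DMSO (median 0.69; -0.53 under the maternal scaling), and 7 were higher and 4 lower than in SR1848. Over all genes tested, 40.0% were higher and 36.6% lower than in DMSO, and 18.8% and 10.3% against SR1848. The share of counts was below every SR1848 embryo in all 17, and within the DMSO range in 16. Its medians were 0.103% with GFP and 0.203% in SR1848. The share is a sum that follows abundant members such as Oas1c, so it does not show a fall of the members as a group. Oas1c, of the 2-5A synthetase family and known as an oocyte transcript, had 209 to 575 CPM with GFP (median 367), 36.2 to 147 in DMSO (median 73.8) and 664 to 1494 in SR1848 (median 1119). Mx1 rose by 1.92 against DMSO and changed by 0.15 against SR1848 (adjusted p = 0.674), and Ifi35 fell by 5.21. Cxcl10, a chemokine gene picked after its values were seen, had 0 to 68.2 CPM with GFP (median 9.51), 0 to 4.12 in DMSO and 0 to 1.91 in SR1848.

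Replication-dependent histones, most of whose mRNAs end without a poly(A) tail, were higher. Of 66 listed, 22 were tested, and 20 were higher and 0 lower than in DMSO (median 2.32) while 2 were higher than in SR1848 (median 0.21). Their share had a median of 0.187% with GFP. Without Hist2h2be, a step added after the data were seen, it was 0.0200% to 0.0576% (median 0.0301%) against 0.00677% to 0.0159% in DMSO (median 0.0107%) and a median of 0.0255% in SR1848. Hist1h4c and Hist4h4 rose by 3.29 and 2.18 against DMSO and were not called against SR1848.

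Markers of other cells that could cling to an embryo were partly detected. Of 17 blood and epithelium markers 10 had a median of 0 CPM with GFP (10 in DMSO), with Hbb-bs and Hbb-bt at 0 counts in all 17. Of 25 cumulus and granulosa markers 13 had a median of 0 (14 in DMSO), and of 19 spermatid markers 12 (12 in DMSO). Their summed shares were 0.0162% to 0.0451% with GFP against 0.0125% to 0.0318% in DMSO for blood and epithelium, 0.00231% to 0.0105% against 0.00599% to 0.0189% for cumulus and granulosa, and 0.0202% to 0.0945% against 0.0103% to 0.0297% for spermatid. The spermatid medians were 0.0526% with GFP, 0.0155% in DMSO and 0.0762% in SR1848. Of 4, 6 and 5 members tested, 2, 1 and 2 were higher and 2, 2 and 2 lower than in DMSO. Of the alpha-globin genes, Hba-a2 had 58.8 to 272 CPM with GFP (median 193) and a DMSO median of 9.58, and Hba-a1 had medians of 72.4 and 3.60. Krt14, a keratin of basal epithelium, had counts in 13 of 17 embryos with GFP (up to 45.5 CPM), and in 0 of 16 in DMSO and 0 of 16 in SR1848. The cumulus matrix gene Ptx3 had counts in 7 of 17 (up to 18.7 CPM) and the spermatid gene Tnp1 in 11 of 17 (up to 9.18 CPM), and both were at 0 counts in all DMSO and SR1848 embryos. Odf2, a centriole and sperm tail gene, rose by 2.23, from a median of 126 CPM in DMSO to 510.0 (749 in SR1848), and Amhr2 and Kitl, of the granulosa list, changed by -3.02 and -1.18. Other members of the blood and epithelium and spermatid lists went the other way. From DMSO to GFP, the median fell from 171 to 23.8 CPM for Epcam and from 6.04 to 1.15 for Ovgp1. For Ldhc it fell from 19.6 to 1.49 and for Tssk6 from 5.14 to 0. The part of such cells in the results was not tested.

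The authors' index also held entries for the B1 and B2 SINE repeats, short retroelements transcribed in early embryos. B1 had a median of 19.8 CPM with GFP and 7.01 in DMSO, and B2 had 31.6 and 8.05. On the log2(CPM + 1) scale B1 was higher by 1.37 (SE 0.207) and B2 by 2.02 (SE 0.280), n = 17 against 16. Adjusted p-values of a 2-sided permutation test were 4e-05 for both, and 2e-05 is the smallest raw p that 100000 resamples can give. All 17 embryos lay above the DMSO median for both, and 11 (B1) and 14 (B2) above every DMSO embryo. Injected embryos under the GFP threshold had medians of 15.8 (B1) and 27.7 CPM (B2), near those with GFP. In SR1848 the medians were 5.39 and 9.63 CPM. Each entry is 1 sequence, and reads of repeats inside other transcripts can fall on it.

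Promoters were searched for the NR5A2 core motif CAAGGNCA (N for any base) on both strands, in 300 bases from 250 before to 50 after each RefSeq start (GRCm38.p6). It was present for 7.64% of 27025 genes. Of the 43 genes named above by size, 32 had an entry, and 8 held the motif (25.0%). By group these were 2 of 9 genes that remained low, 2 of 7 added, 2 of 7 not called against DMSO, 0 of 4 that fell below both and 2 of 6 that remained high. A match is a description of letters, not a bound site. The following 3 windows of 60 bases are shown, 5′ to 3′ on the strand of the gene with the motif in capitals, because they set a gene that stayed low, an added gene and a gene not called against DMSO side by side. They are chr5:76951681-76951740 on the minus strand for Ppat, chr7:11005495-11005554 on the plus strand for Zscan4c, where the motif stands as its reverse complement, and chr1:105663774-105663833 on the plus strand for Relch.
Ppat: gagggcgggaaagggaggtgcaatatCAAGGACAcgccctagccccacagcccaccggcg
Zscan4c: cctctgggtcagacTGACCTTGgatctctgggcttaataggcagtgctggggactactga
Relch: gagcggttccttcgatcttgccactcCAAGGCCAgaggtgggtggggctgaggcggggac
The motif began 136 bases before the start for Ppat, 236 before for Zscan4c and 61 before for Relch. Ppat stayed at a median of 2.42 CPM with GFP against 699.8 in DMSO, Zscan4c exceeded the DMSO range in 11 of 17 embryos and Relch overlapped it, so the same core stands in promoters with each of these outcomes.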

How the data were processed

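Polyadenylated RNA of single 2-cell embryos was sequenced after SmartSeq2 with oligo-dT priming, per the labels' protocols. Per the submitters' processing notes, bcl2fastq, Trim Galore 0.6.2, kallisto 0.46.1, R 3.5.1 and DESeq2 1.32.0 were used, with the builds mm10 and hg19 (the role of hg19 is not stated there). The authors deposited expected counts, as estimated by kallisto, for 119358 transcripts. The authors' deposited table of SR1848 against SR1848 with NR5A2 mRNA holds, per the file headers, log2 fold changes and adjusted p-values of transcripts, and served only to pair 892 transcripts with genes. Columns were matched to samples by prefix, number and experiment, with the prefix C88 read as SR1848 with NR5A2 mRNA and ComS as SR1848 from their replicate numbers.

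The rest were paired by GENCODE M21 (GRCm38), leaving out 1691 with 0.557% of counts. Gene sums were rounded. CPM is a gene's count per 1e6 counts of the library. The test was edgeR 4.0.16 (quasi-likelihood, TMM, filterByExpr) on 3 groups of experiment 1, with Benjamini-Hochberg adjustment at 0.05, and 95% intervals from the same fit. Genes were named by size within each class (at most 10, 5 for those below both groups), with a group mean from 4 log2 CPM up and at least 1 CPM in 3 of 4 embryos of the higher group, and up to 3 per list. Members, lists and rules were chosen with earlier results of these data known. On simulated counts for the comparison with DMSO (12698 genes), 200 genes were changed, equally up and down. The test recovered 86% of 4-fold and 58% of 2-fold changes, with 9 false calls. Since 76.6% of genes were called in the data, this simulation does not test the scaling or the rate of false calls there. No 2 libraries had identical values. Alternatives covered scaling, DESeq2 1.42.0, filters, low libraries, the GFP threshold, the replicate block and leaving out each embryo. Reads are not stranded, so a gene and its antisense partner cannot be told apart. Poisson intervals and floors cover counting error only.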

Additional observations from a re-analysis of the deposited data

Results flagged for a closer look

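Among the 9 injected embryos under the GFP threshold, 1 stood apart from the others of its group with 8389 genes detected. Chance flags about 1 in 20 groups in this way, and the embryo is not among the 17 with GFP.

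The change with GFP over SR1848 differed between experiments 1 and 2 for 3 of the genes not called against DMSO, by an interaction test (edgeR, 13935 genes tested, 359 called) that was added after the data were seen. For Tnfrsf22 the difference was 2.84 (SE 0.73, adjusted p = 0.0215), with changes of 2.80 in experiment 1 and 0.00 in experiment 2. For Relch it was 2.52 (SE 0.61, adjusted p = 0.0149), with 3.44 and 0.96. For Prkcq it was 2.44 (SE 0.65, adjusted p = 0.0267), with 2.98 and 0.59. For Zscan4c the difference was 3.92 (SE 1.23), which missed the threshold (adjusted p = 0.0592). The cause was not tested.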

How the results depend on the processing

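Scaling to maternal transcripts gave 1987 genes higher and 7415 lower with GFP than in DMSO, 4577 and 463 against SR1848, and 1302 and 8837 for SR1848 against DMSO. Without a filter on low counts, 8814 were higher with GFP than in DMSO, 6124 higher than in SR1848, and 8739 lower with SR1848 than in DMSO. DESeq2 gave 4293 genes higher than in SR1848 and 2308 of those found higher again in experiment 2. With the low libraries kept, 1107 were higher and 564 lower than in SR1848, and 496 and 276 were found again in experiment 2, where 3 of 785 higher and 74 of 504 lower genes tested were called the opposite way (18 of 1897 and 9 of 1313 without these libraries).

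Replicate numbers are shared between groups, but embryos with the same number did not deviate together (35 pairs, correlation -0.332 to 0.098, median 0.008; 1 of 10 embryos correlated best with its own number), so they do not pair embryos. With the number as a replicate block, 4625 genes were higher and 4680 lower than in DMSO, and 1594 were higher than in SR1848. With the block, Mt2 (-0.82), Prkcq (-1.37), Tet1 (-1.37), Tnfrsf12a (-2.13) and Tnfrsf22 (-2.03) were called lower than in DMSO. The maternal scaling also made these 5, H2afz, Cited1, Lck and Zfp647 lower by the test, and ended the call of Hhex, Scap, Col4a2 and mt-Nd1. Leaving out each of 33 embryos gave 5107 to 5308 genes higher and 4731 to 4831 lower, and 0 of 107 called named genes lost the call. Among these, Tssk6 was not tested in all of these fits, so its call was not followed through them.

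Of 1286 pairs of named gene and setting, 1243 kept direction and call. The change against DMSO turned for Relch (-0.71 maternal scaling, -0.43 replicate block), Cited1 (-0.17 relative log expression, -0.0652 total counts, -1.05 maternal scaling, -0.17 DESeq2, -0.0349 without a filter), Lck (-0.0911 relative log expression, -1.04 maternal scaling, -0.0909 DESeq2), H2afz and Fundc1 (0.0456 and 0.0478 without a GFP threshold), mt-Co3 (-0.0484) and mt-Nd4 (-0.0395; both maternal scaling). The cause was not tested. A threshold of 1000 CPM of GFP gave the same 17 embryos. The share of histones without Hist2h2be was added after the data were seen. The SINE entries kept their call under each setting run.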
